A study of Mus musculus with 12 samples.

Results

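The cytochrome P450 genes of the mouse colon were examined in mice that lack thrombospondin 1 (TSP-1) and in wild type (WT) mice. A probe was taken as a member when the annotation of the array gave it exactly 1 gene symbol, and that symbol was Cyp followed by a family number and a subfamily letter. This gave 86 probes for 86 genes, in 14 families and 36 subfamilies, out of 28853 probes on the array, of which 21789 carried 1 symbol (19938 genes). All 86 matched a RefSeq gene of the same symbol by gene ID. A further 7 probes listed a P450 symbol next to other symbols and were not used, and Cyp51, which has no subfamily letter, does not meet the rule.

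Total RNA of colon tissue was hybridized to Affymetrix mouse gene arrays, 1 array per sample, with 3 arrays labelled as biological replicates in each of 4 groups. The AOM/DSS groups were WT and TSP-1-/- (genotype label TSP-null) mice of the strain labelled C57/BL/6. They received azoxymethane (AOM), a carcinogen that the liver must first oxidize, as a single injection of 10 mg/kg, and 1.5% dextran sulfate sodium (DSS), which injures the colon lining, in the drinking water for 4 cycles of 7 days. These mice were male, 7 weeks old at the start, and their colons were collected 15 weeks after AOM and 4 weeks after the last DSS cycle. The water groups were WT and TSP-null mice of the strain labelled C57BL/6 that drank water only, and their labels carry the protocol of another DSS experiment and give no age, whereas the methods describe the mice of the study in general as male and 7 weeks old. TSP-1-/- mice carry a germline mutation of Thbs1 in every cell, so the colon lacks TSP-1 from development on. The labels call every sample colon, while the study speaks of its treated array samples as tumors, so that the AOM/DSS arrays may hold tumor tissue, and how much of each sample was tumor is not stated in the sources used here.

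P450 enzymes are heme proteins that insert an oxygen atom into their substrates, with electrons from the reductase Por in the endoplasmic reticulum or from ferredoxin in mitochondria. Families 1 to 3 handle drugs, carcinogens and dietary compounds, family 4 hydroxylates fatty acids and eicosanoids, and the higher families make or degrade bile acids, steroid hormones, retinoic acid and vitamin D. In the gut they are found mainly in the absorptive epithelium. Nuclear receptors such as PXR (Nr1i2), CAR (Nr1i3) and the PPARs regulate many of them, and the aryl hydrocarbon receptor (Ahr) regulates family 1.

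Each value below is a deposited log2 value relative to a baseline of its own probe. A difference of 1 is thus 2-fold, values of different genes cannot be compared as levels, and the AOM/DSS arrays and water arrays have different baselines, so that genotypes were compared only within each set. A gene was called when the limma fit over all probes gave a Benjamini-Hochberg adjusted p under 0.05 and a difference of at least 2-fold. The 3 arrays per group limit the precision, and since the samples are bulk tissue, fewer cells of a type and less RNA per cell cannot be told apart.

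Some arrays stood apart. The SD over all probes was 0.753 on TSP-1-/- AOM/DSS replicate 3 and 0.293 to 0.453 on the other 11 arrays, and on that replicate 8 pancreatic acinar markers had a median of 6.01 against -0.17 to 0.02 on the other AOM/DSS arrays. Several genes that mark position along the colon divided the arrays in a way other than the labels. Hoxb13, a marker of the distal end, was 0.43, -6.33 and -5.89 in WT AOM/DSS replicates 1 to 3 and 0.78, -0.06 and 0.06 in the TSP-1-/- replicates. In this respect WT replicate 1 resembled the TSP-1-/- arrays, and Hoxb6, a proximal gene, showed the reverse with -3.44, 1.28 and 0.98 in WT and -2.60, -3.25 and -3.43 in TSP-1-/-. The list of 6 distal genes was not uniform, with a median difference of 0.40 and 0 called. Hoxa13 ran with Hoxb13 (difference 1.94), Hoxd10 (-1.83) and Hoxd11 (-1.54) ran with Hoxb6, and Hoxd12 differed by 0.08. In water, Hoxb13 was 2.48, 1.52 and -3.68 in WT and 1.70, 2.17 and -4.24 in TSP-1-/-, so that replicate 3 of both genotypes was the low one. The probe of Thbs1 itself was -0.16 to 0.27 in WT AOM/DSS and 0.81 to 0.93 in the arrays labelled TSP-1-/-, and in water it differed by 0.24 (adjusted p = 1). It was not lower in the mutant, and because the position of the probe relative to the mutation is not given it does not check the labels. The directions below rest on the labels.

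In the AOM/DSS mice, 6 P450 genes were called lower in TSP-1-/- and 1 was called higher. The lower genes were Cyp2e1, Cyp2c65, Cyp2d26, Cyp2c66, Cyp3a13 and Cyp3a44, all from the drug and xenobiotic families, and the higher one was Cyp4f18 of the fatty acid family 4. The 7 called genes are 8.14% of the members, beside 2.78% of all probes called in either direction. The 6 lower genes are 6.98% of the members beside 1.05% of all probes, and the 1 higher gene is 1.16% beside 1.73%. A decrease of at least 2-fold, without regard to the test, was seen in 11 members (12.8%, against 1.61% of all probes), and 13 members had an adjusted p under 0.05 at any fold (15.1%, against 8.3%).

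Most members moved little. The AOM/DSS difference was within 0.5 log2 units in 56 of 86 members, and its median over the members was 0.15, against 0.13 over all probes. The members ranged from -2.83 (Cyp2e1) to 1.28 (Cyp1b1). All 3 TSP-1-/- arrays were below all 3 WT arrays for 15 members (17.4%, against 10.7% of all probes) and above them for 14 (16.3%, against 20.2%). The lower calls thus came from a small group of genes with large differences, while the median of the members lay close to that of all probes.

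**Figure D1:**
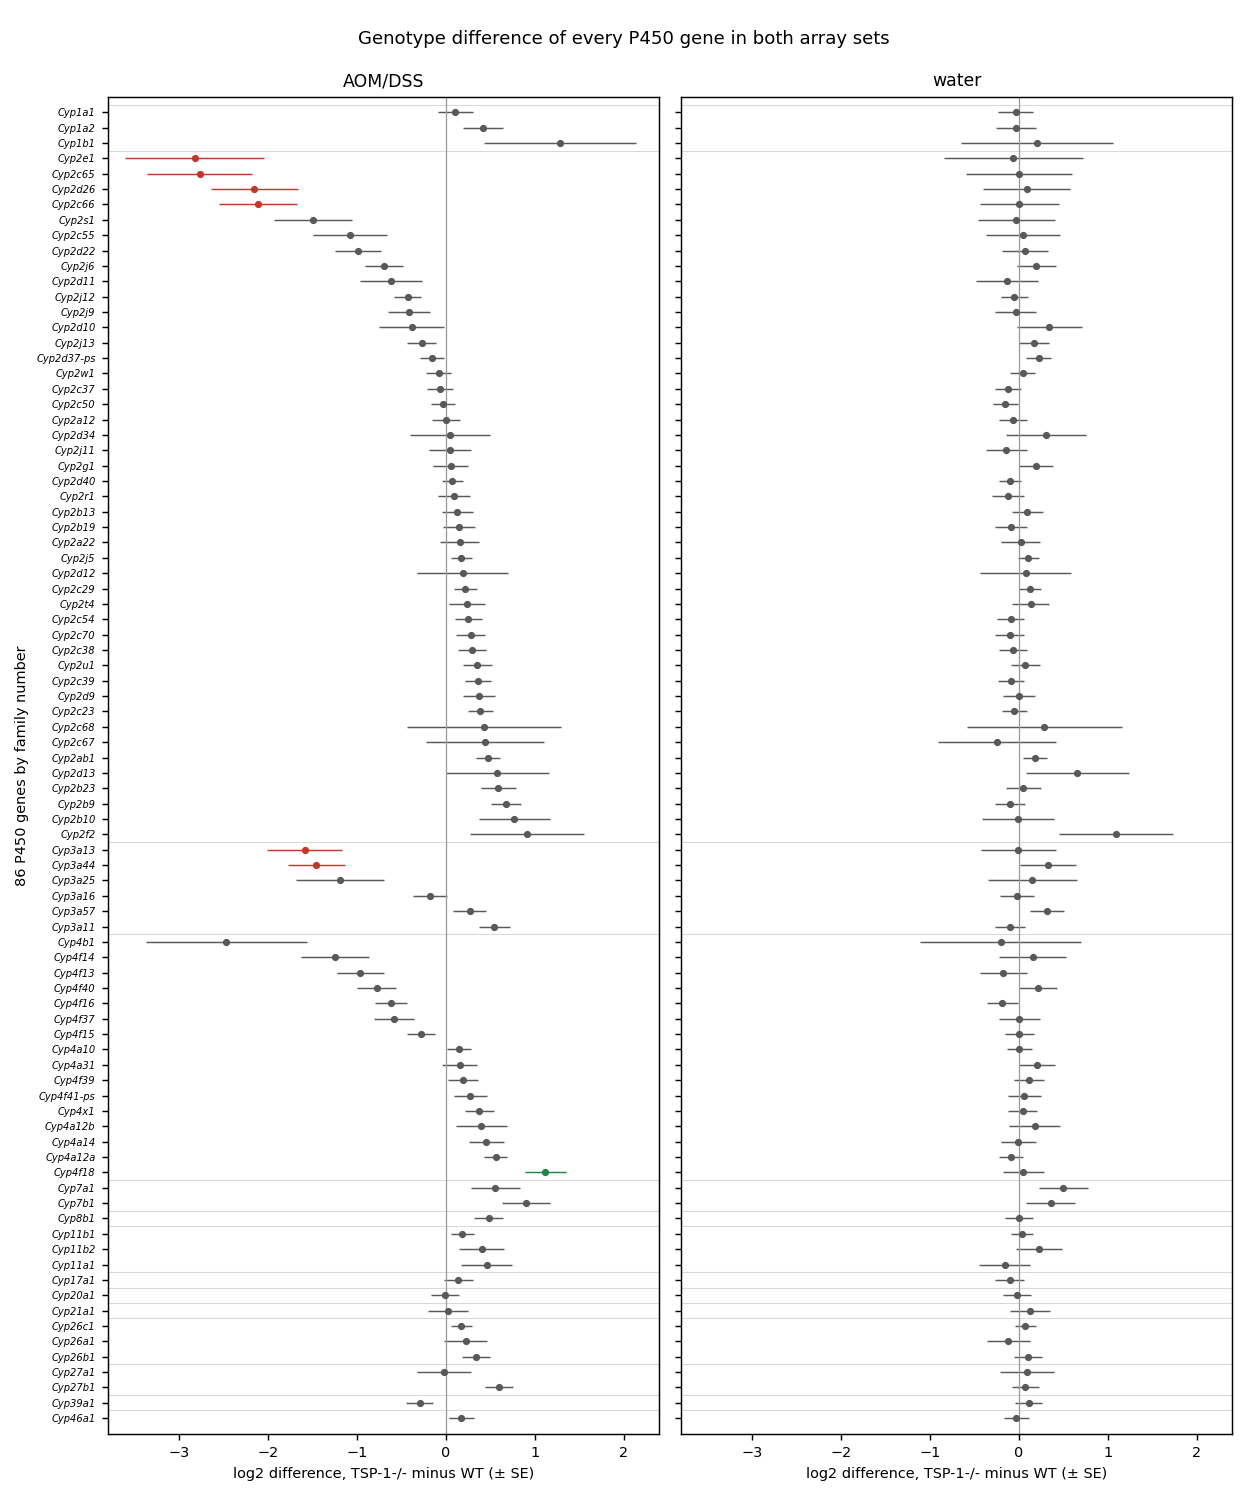
The log2 difference of TSP-1-/- minus WT is plotted on the horizontal axis for each of the 86 P450 genes, ordered by family number and then by size, in AOM/DSS mice (left) and water mice (right), with bars for the standard error. Red points were called lower, the green point was called higher, and grey points were not called. The 6 red points and the green point are all in the left panel.

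Cyp2e1, which oxidizes small molecules including AOM in the liver, had the largest difference. It measured -1.82, 1.45 and 1.36 in the 3 WT replicates and -2.95, -3.13 and -1.42 in the TSP-1-/- replicates. The groups overlapped, since WT replicate 1 was below TSP-1-/- replicate 3. The fall was 7.1-fold, or -2.83 ± 0.79 (SE) on the log2 scale, with an adjusted p of 0.0481.

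Cyp2c65 and Cyp2c66 are arachidonic acid epoxygenases of the digestive tract that lie next to each other in the genome. Cyp2c65 measured -1.57, 0.37 and 0.33 in WT and -2.97, -1.80 and -4.42 in TSP-1-/-. The groups did not overlap, and the fall was 6.82-fold (log2 -2.77 ± 0.59, adjusted p = 0.0266). Cyp2c66 measured -1.46, 0.23 and 0.27 in WT and -2.62, -1.58 and -3.10 in TSP-1-/-, a 4.33-fold fall (log2 -2.11 ± 0.44, adjusted p = 0.0254). Both genes ranked the 6 arrays almost alike, with TSP-1-/- replicate 3 lowest and WT replicate 1 next to the TSP-1-/- arrays.

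Cyp2d26, a member of the family that contains the human drug enzyme CYP2D6, measured -1.44, 0.14 and 1.07 in WT and -1.93, -2.03 and -2.73 in TSP-1-/-. It fell 4.45-fold (log2 -2.15 ± 0.49, adjusted p = 0.0294) without overlap. Cyp3a13, the main Cyp3a enzyme of the mouse intestine, measured -0.87, 0.42 and 0.67 in WT and -0.91, -1.14 and -2.51 in TSP-1-/-. Its fall was 3.01-fold (log2 -1.59 ± 0.42, adjusted p = 0.0425), and the gap between WT replicate 1 and the highest TSP-1-/- array was slight. Cyp3a44, best known from the liver of female mice, measured -0.77, 0.23 and 0.66 in WT and -0.88, -1.75 and -1.63 in TSP-1-/-, a fall of 2.75-fold (log2 -1.46 ± 0.32, adjusted p = 0.0274).

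Cyp4f18 moved the other way. This enzyme of leukocytes hydroxylates leukotriene B4, a lipid that attracts neutrophils. It measured -0.22, -0.17 and -0.49 in WT and 0.55, 0.46 and 1.46 in TSP-1-/-, a rise of 2.17-fold (log2 1.12 ± 0.23, adjusted p = 0.0246). Here the groups were well apart and WT replicate 1 lay with the other WT arrays. Leukocyte markers moved the same way, with 3 of 7 called higher (Lyz2, Csf1r and Cd79a), beside 1.73% of all probes. None was called lower, and the median difference was 1.03. The part of leukocyte content in the Cyp4f18 difference was not tested.

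**Figure D2:**
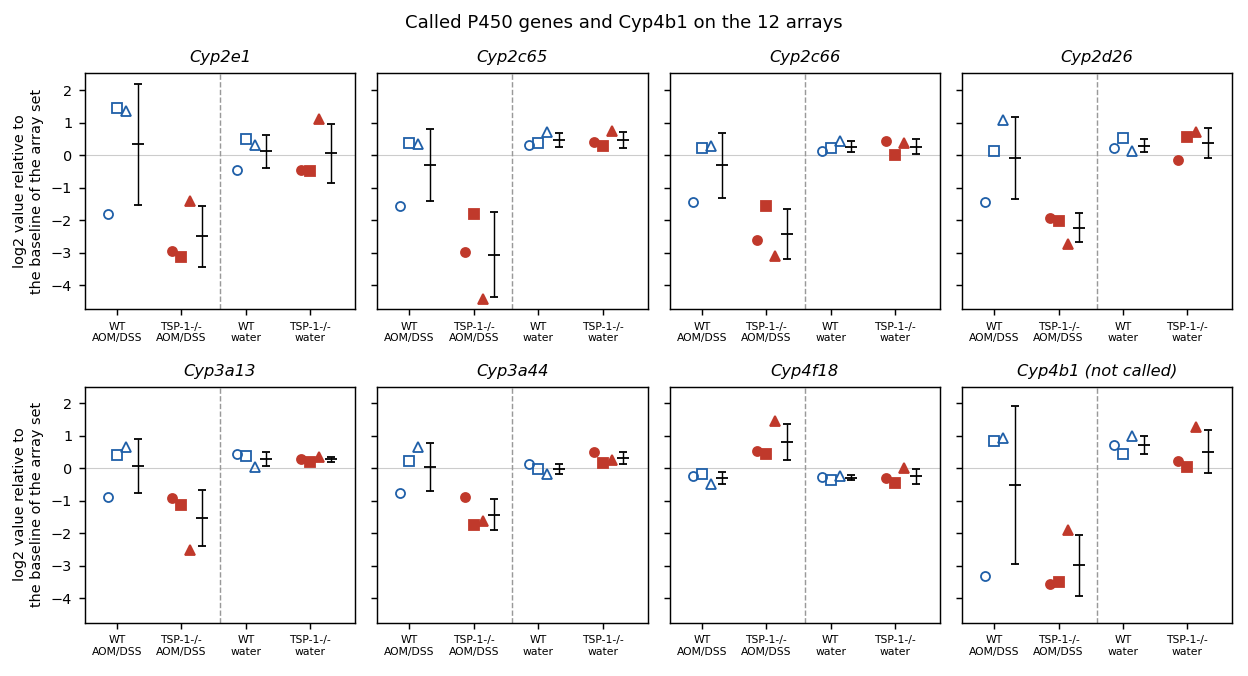
Each panel plots the log2 value, relative to the baseline of its array set, of 1 gene on the 12 arrays, with WT as open blue and TSP-1-/- as filled red symbols. Circle, square and triangle are replicates 1, 2 and 3, the black bar is the group mean with its SD, and the dashed line separates array sets that have different baselines. In 7 of the 8 panels the WT AOM/DSS circle lies near the red symbols, and Cyp4f18 is the exception.

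In WT AOM/DSS replicate 1, each called gene except Cyp4f18 had a value closer to the average of the TSP-1-/- arrays than to that of WT replicates 2 and 3. Without that array 12 members were called, and the share of all probes called in that fit is not given here. Cyp2e1 then differed by -3.90 (adjusted p = 0.00308) and Cyp2d26 by -2.83 (adjusted p = 0.00124). The 5 further genes were Cyp4b1, Cyp2s1, Cyp3a25, Cyp2d22 and Cyp4f13. Without WT replicate 2 the only call was Cyp4f18, and without WT replicate 3 or TSP-1-/- replicate 3 no member was called. The direction of the 7 genes held in each of these fits, and without TSP-1-/- replicate 3 Cyp2e1 differed by -3.37 (adjusted p = 0.0704), Cyp2c65 by -2.09 (0.0695) and Cyp4f18 by 0.80 (0.0468, under 2-fold). None of the 7 was called in all 12 fits that left out 1 array. Cyp4f18 was called in 10 of them, Cyp2c65, Cyp2c66, Cyp2d26 and Cyp3a44 in 9, Cyp3a13 in 3 and Cyp2e1 in 2. No member was called when the 6 AOM/DSS arrays were fitted alone or when the 12 arrays were quantile normalized again.

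**Figure D3:**
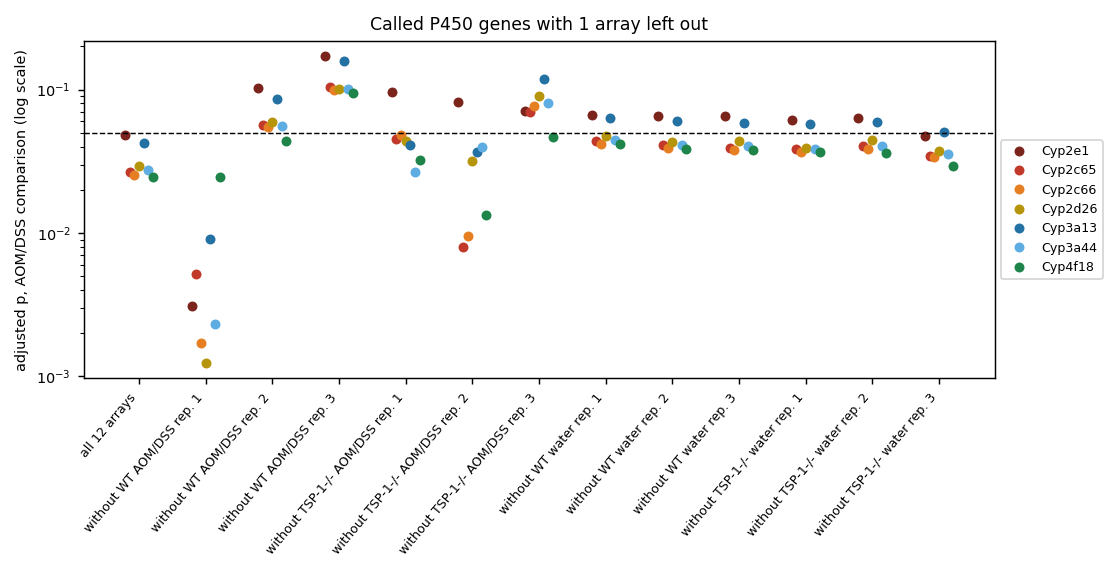
The adjusted p of the AOM/DSS comparison is plotted on a log axis for the 7 called genes with all 12 arrays and with each array left out in turn, and the dashed line marks 0.05. All 7 points lie below the line without WT AOM/DSS replicate 1 and all lie above it without WT AOM/DSS replicate 3.

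For 5 more members the TSP-1-/- mean was at least 2-fold lower but the test was not passed. Cyp4b1, which oxidizes fatty acids and some toxins, measured -3.31, 0.84 and 0.93 in WT and -3.57, -3.49 and -1.89 in TSP-1-/- (log2 -2.47 ± 0.91, adjusted p = 0.0925). WT replicate 1 was among the TSP-1-/- values. Cyp3a25 had the same form, with -1.02 in WT replicate 1 against 1.09 and 0.66 in the other WT arrays (log2 -1.19, adjusted p = 0.125).

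In the other 3 genes the low array was TSP-1-/- replicate 3. Cyp2s1, a P450 of epithelia outside the liver, measured 0.03, 0.74 and 0.82 in WT and -0.40, -0.22 and -2.27 in TSP-1-/- (log2 -1.49, adjusted p = 0.0535). Cyp4f14, a leukotriene B4 hydroxylase, was -2.30 on that replicate and -0.61 and -0.40 on the others (log2 -1.25, adjusted p = 0.0589). Cyp2c55, a colonic enzyme, was also -2.30 there against -0.42 and -0.28 (log2 -1.08, adjusted p = 0.105). Without that replicate these differences were -0.84, -0.65 and -0.43.

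Cyp2e1 and Cyp4b1 were high on the same arrays as several adipocyte genes. Adipoq, which encodes adiponectin, measured -2.40, 1.46 and 1.40 in WT AOM/DSS and -4.49, -3.49 and -1.87 in TSP-1-/-, and Lep, the leptin gene, -1.45, 2.03 and 1.80 against -1.74, -1.98 and -1.20. For all of these genes WT replicates 2 and 3 were above 0 and the other 4 arrays were below -1. The same held for Cyp2c65, Cyp2c66, Cyp2d26, Ppara and the proximal gene Hoxb6, so it was not particular to Cyp2e1, Cyp4b1 and fat genes. Among the measured adipocyte markers it held only for Adipoq and Lep. It did not hold for Fabp4 (-0.92 on TSP-1-/- replicate 3), Lipe (-0.26 on WT replicate 1) or Cidec (-0.85 on TSP-1-/- replicate 2). Nor did it hold for Retn (-0.73 on WT replicate 1) or Plin1 (-0.04 on WT replicate 3). Of 7 adipocyte markers 2 were called lower (Cidec and Retn), beside 1.05% of all probes. Their median was -2.04, and Plin1 differed by 0.05. The part of fat tissue and of colon position in the P450 differences was not tested. Epithelial markers changed less than the adipocyte markers, with a median of -0.35, 0 of 10 called and a lowest adjusted p of 0.051. Still, 9 of 10 were below 0, against 10721 of 28853 probes. For 5 of 10 all TSP-1-/- arrays lay below all WT arrays, against 10.7% of all probes. Their median on TSP-1-/- replicate 3 was -0.54, and Cdx2 measured -2.08 there. Hepatocyte markers had a median of -0.10 with 1 of 9 called, Alb (2.79 higher), and the proximal position genes had a median of -1.81 with 0 of 5 called.

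The Cyp2c family is a row of genes on chromosome 19, and the 13 members divided by their place in it. The 3 genes at one end, Cyp2c55, Cyp2c65 and Cyp2c66, had the lowest differences (log2 -1.08, -2.77 and -2.11), of which the last pair passed the test. The other 10, which include the liver enzyme Cyp2c29 (0.22) and Cyp2c70 (0.28), an enzyme of bile acid hydroxylation in mouse liver, lay between -0.07 and 0.44, and none passed. The promoters of these 3 neighbours are shown because no other 3 adjacent members of these clusters all had a mean at least 2-fold lower, and that of Cyp2e1 because it is the gene with the largest difference. They come from RefSeq on GRCm38.p6 and cover 250 bases before and 50 after the start of the gene, written 5′ to 3′ along the gene. Capitals mark a match to one of the motifs given after them, on either strand. All 4 genes are on the plus strand: Cyp2c55 at chr19:39006769-39007068, Cyp2c65 at chr19:39060756-39061055, Cyp2c66 at chr19:39113648-39113947 and Cyp2e1 at chr7:140763569-140763868.
Cyp2c55: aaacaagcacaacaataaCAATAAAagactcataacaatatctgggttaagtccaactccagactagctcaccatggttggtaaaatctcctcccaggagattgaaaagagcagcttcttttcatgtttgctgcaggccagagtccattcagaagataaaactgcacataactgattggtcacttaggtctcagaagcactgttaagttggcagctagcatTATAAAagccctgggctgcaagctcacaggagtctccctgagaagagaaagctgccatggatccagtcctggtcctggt
Cyp2c65: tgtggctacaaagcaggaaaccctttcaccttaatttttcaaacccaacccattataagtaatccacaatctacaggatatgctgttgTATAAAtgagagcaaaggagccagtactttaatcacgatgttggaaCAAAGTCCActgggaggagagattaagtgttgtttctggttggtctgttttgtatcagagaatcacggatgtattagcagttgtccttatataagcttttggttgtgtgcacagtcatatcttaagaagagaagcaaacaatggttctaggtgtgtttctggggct
Cyp2c66: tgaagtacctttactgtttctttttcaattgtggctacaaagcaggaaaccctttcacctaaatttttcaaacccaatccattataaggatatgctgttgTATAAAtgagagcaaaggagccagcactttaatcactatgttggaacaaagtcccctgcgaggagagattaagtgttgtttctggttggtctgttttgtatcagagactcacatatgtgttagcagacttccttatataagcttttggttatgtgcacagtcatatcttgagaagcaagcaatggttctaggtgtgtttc
Cyp2e1: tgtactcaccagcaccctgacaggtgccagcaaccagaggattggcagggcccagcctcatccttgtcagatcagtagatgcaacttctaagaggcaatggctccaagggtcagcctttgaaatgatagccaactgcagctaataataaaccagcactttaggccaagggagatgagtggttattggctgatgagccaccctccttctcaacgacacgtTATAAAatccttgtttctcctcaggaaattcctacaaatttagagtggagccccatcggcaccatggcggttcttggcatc
The promoters of Cyp2c65 and Cyp2c66 were identical at 77.8% of aligned positions (256 of 329), and those of Cyp2c55 and Cyp2c65 at 56%. Promoters were listed for 63 of the 86 members and searched on both strands for 7 motifs. TATAAA, the letters of the TATA box, was found in 24 of the 63 (38.1%, against 14.2% of the 27025 promoters in the table). It was also found in 5 of the 6 genes called lower. These counts cover the whole window and did not ask for the usual place of a TATA box. In Cyp2e1 and Cyp2d26 the letters lay shortly before the start of the gene. In Cyp2c65, Cyp2c66 and Cyp3a44 they lay much farther upstream, so those matches cannot be taken as TATA boxes. CAAAGTCCA, a binding site of the liver and gut factor HNF4A, was found in 7 (11.1%, against 0.477%), of which Cyp2c65 is one, and not in the window of Cyp2c66. The nuclear receptor half-site AGGTCA was found in 23.8% of the members against 16% of all promoters, and its variant AGTTCA in 9.52% against 14%. The HNF1 half-site GTTAAT was found in 4.76% against 7.2%, the CDX site TTTATNG in 14.3% against 11.3%, and NGCGTG, the core of the aryl hydrocarbon receptor site, in 23.8% against 32.4%. TTTATAG would match both the CDX site and the reverse of TATAAA. A match is a description of these letters and not a site of binding.

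Other groups of related genes were just as uneven. In Cyp2d, on chromosome 15, the called gene Cyp2d26 stood at one end of the row of 10 and Cyp2d22 at the other, with Cyp2d22 at -0.99 (adjusted p = 0.0409, a 1.99-fold fall and so just short of a call). The 8 between them ranged from -0.62 (Cyp2d11) to 0.58 (Cyp2d13). In Cyp3a, on chromosome 5, Cyp3a13 and Cyp3a44 were called lower and Cyp3a25 measured -1.19. Cyp3a11, the main Cyp3a of the liver, measured 0.55 (adjusted p = 0.0614), and Cyp3a16 measured -0.17. Cyp3a13 lies apart from the others, with its promoter at chr5:137921570-137921869. The other Cyp3a promoters lie between chr5:145345019 (Cyp3a57) and chr5:146009868 (Cyp3a25). The promoters of Cyp3a44 and Cyp3a16 were 93.4% identical. Such closely related transcripts may share signal on the array, since the probe sequences were not used here, so the split of a difference between Cyp2c65 and Cyp2c66, or between Cyp3a44 and its neighbours, is uncertain.

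Of the 9 Cyp4f members, 8 lie together on chromosome 17 and the remaining one, Cyp4f18, is on chromosome 8. Among the 8, none was called, 6 were below 0 and 2 of them, Cyp4f13 (-0.96) and Cyp4f40 (-0.78), had an adjusted p of 0.0471 at under 2-fold. Cyp4f16 was steady within each group (-0.01, 0.01 and 0.03 in WT and -0.54, -0.47 and -0.81 in TSP-1-/-) and differed by -0.62 (adjusted p = 0.0524). Cyp4f39 and the pseudogene Cyp4f41-ps differed by 0.20 and 0.27.

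**Figure D4:**
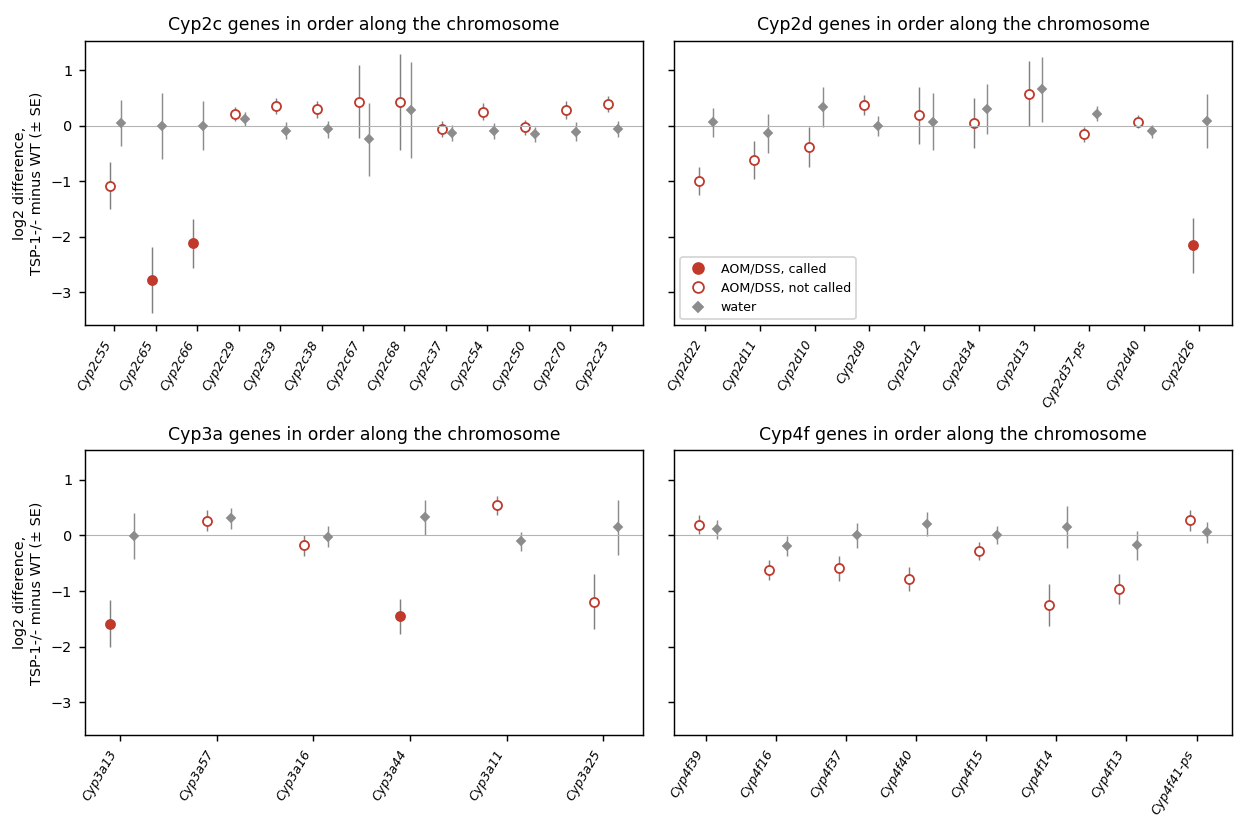
The log2 difference of TSP-1-/- minus WT (± SE) is plotted for the Cyp2c, Cyp2d, Cyp3a and Cyp4f genes in their order along the chromosome, evenly spaced, for AOM/DSS (circles, filled where called) and water (grey diamonds). Cyp4f18, on another chromosome, is left out. The filled circles sit near one end of Cyp2c and of Cyp2d and at separate places in Cyp3a, and no diamond marks a call, the one farthest from 0 being Cyp2d13 at 0.65.

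The remaining members of families 1 to 4 gave no call. In family 1, the AhR targets Cyp1a1 and Cyp1a2 differed by 0.11 (adjusted p = 0.73) and 0.41 (0.217). Cyp1b1, which oxidizes carcinogens and estrogens, measured -0.48, 0.00 and 0.26 in WT and -0.40, 0.03 and 3.98 in TSP-1-/-, so that its difference of 1.28 (adjusted p = 0.305) came from TSP-1-/- replicate 3 alone. All 5 Cyp2b genes, a subfamily that includes targets of CAR, were above 0, from 0.13 to 0.77. Of these, Cyp2b9 (0.67, adjusted p = 0.0386) passed on p but not on fold. The highest of them, Cyp2b10, was 1.68 on TSP-1-/- replicate 2 and -0.14 and -0.34 on the others. All 5 Cyp4a genes, a subfamily that includes targets of PPARα, were also above 0, from 0.15 to 0.56. Of these, Cyp4a12a (0.56, adjusted p = 0.0342) passed on p only. The median of all probes was 0.13 in this comparison, with 18132 of 28853 above 0. When the 12 arrays were quantile normalized again it was 0.02, with 15082 probes above 0 and 13733 below. All 5 Cyp2b and all 5 Cyp4a genes were then still above 0, but the lowest were only 0.01 and 0.04. Cyp2f2, which bioactivates naphthalene, had the largest positive difference of family 2 (0.91, adjusted p = 0.335). Cyp2w1, known from fetal colon and colon tumors, differed by -0.08 (adjusted p = 0.708). The 6 Cyp2j genes, epoxygenases of arachidonic acid, ranged from -0.70 (Cyp2j6) to 0.17 (Cyp2j5) with no call.

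The members of bile acid, steroid hormone, retinoic acid and vitamin D metabolism gave no call. Among the 6 of cholesterol and bile acid metabolism, Cyp7b1, an oxysterol hydroxylase, measured -0.40, -0.14 and -0.50 in WT and 0.31, 0.36 and 0.98 in TSP-1-/- (log2 0.90 ± 0.27, adjusted p = 0.0587) without overlap. Cyp7a1, the rate-limiting enzyme of bile acid synthesis in the liver, differed by 0.55 (adjusted p = 0.185), Cyp8b1 by 0.48 (0.0714), Cyp27a1 by -0.02 (0.97), Cyp39a1 by -0.29 (0.197) and the brain enzyme Cyp46a1 by 0.17 (0.41). The 5 genes of steroid hormone synthesis ranged from 0.02 (Cyp21a1) to 0.46 (Cyp11a1, the enzyme of the initial step), with Cyp11b1 at 0.18 and Cyp17a1 at 0.14. The 3 enzymes that degrade retinoic acid were between 0.17 (Cyp26c1) and 0.34 (Cyp26b1), with Cyp26a1 at 0.22. In vitamin D metabolism Cyp27b1, which makes the active hormone, measured 0.04, 0.27 and -0.03 in WT and 0.72, 0.37 and 0.97 in TSP-1-/-, a rise of 1.51-fold (adjusted p = 0.0409) that was under the 2-fold minimum, and Cyp2r1 differed by 0.09. Cyp20a1, whose substrate is not known, differed by -0.01.

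The genes that work with P450 enzymes or regulate them were taken from 3 lists. Of 7 measured electron donors and heme genes, 0 were called and the median difference was -0.60. Pgrmc1, a heme-binding partner of P450 enzymes, differed by -0.98 (adjusted p = 0.0344) and Fdx1, the ferredoxin of mitochondrial P450 enzymes, by -0.70 (adjusted p = 0.0242), both under 2-fold.

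Of 28 measured regulators, 4 were called lower and 1 higher, with a median of -0.26, beside 1.05% and 1.73% of all probes. The lower ones were Ppara (log2 -1.84, adjusted p = 0.0453), the fatty acid receptor, Nr5a2 (-1.33, 0.0341), a receptor of bile acid and gut steroid genes, Nr1h4 (-1.22, 0.0292), the bile acid receptor FXR, and Pparg (-1.06, 0.0325). Ppara measured -1.16, 0.98 and 1.15 in WT and -1.14, -1.43 and -1.98 in TSP-1-/-, with WT replicate 1 again among the TSP-1-/- values. The higher one was Onecut2 (log2 1.47, adjusted p = 0.0185), a factor of liver and gut epithelium. PXR (Nr1i2) differed by -0.86 (adjusted p = 0.154), with -1.89 on TSP-1-/- replicate 3 against -0.14 and -0.06, CAR (Nr1i3) by 0.30 (0.2), Ahr by 0.48 (0.142) and Hnf4a by -0.57 (0.161).

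Of 21 probes for enzymes that act on P450 products, 9 were called lower and none higher, with a median of -1.12. Of all probes, 1.05% were called lower and 1.73% higher. They included Nqo1, a quinone reductase, with 0.00, 0.72 and 1.04 in WT and -0.89, -0.92 and -1.10 in TSP-1-/- (log2 -1.56, adjusted p = 0.00987). Ugt2b5, a glucuronosyltransferase, measured -2.71, 0.67 and 0.86 in WT and -3.87, -3.32 and -3.69 in TSP-1-/- (log2 -3.23, adjusted p = 0.0276). The others were Ugt2b34, Ephx2, Aldh1a1, Aldh1b1, Sult1c2 and both probes of Gstm3, from -1.83 to -1.01. Gsta3, Ephx1 and Adh1 differed by 0.01, 0.20 and 0.31. The 14 calls over the 3 lists became 8 when WT water replicate 1 was left out, 2 when WT AOM/DSS replicate 2 or 3 was, and 1 when the third TSP-1-/- array of the AOM/DSS set was. These lists were made with results of these data known, and their counts are a description.

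In the water mice no P450 gene was called, nor was any of the 28815 probes with water values (0%). An unadjusted p under 0.05 was reached by 0 members and by 288 of all probes (0.999%). The median over members was 0.03 and the range -0.24 to 1.09. All TSP-1-/- arrays lay below all WT arrays for 0 members (2.88% of all probes) and above them for 5 (5.81%, against 2.29%), which were Cyp3a44, Cyp4f40, Cyp2d37-ps, Cyp2j5 and Cyp3a57. The genes called in AOM/DSS differed in water by -0.06 (Cyp2e1), 0.00 (Cyp2c65 and Cyp2c66), 0.08 (Cyp2d26), -0.01 (Cyp3a13), 0.32 (Cyp3a44) and 0.05 (Cyp4f18).

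The lowest water p values belonged to Cyp7a1 (0.50, unadjusted p = 0.0958), Cyp2f2 (1.09, 0.115), Cyp3a57 (0.31, 0.124), Cyp2d37-ps (0.22, 0.133) and Cyp2ab1 (0.18, 0.204), each with an adjusted p of 1. Cyp2f2 measured 0.04, 0.57 and -0.59 in WT and 1.59, 1.72 and -0.02 in TSP-1-/-, so that the groups overlapped.

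The water arrays of a genotype differed widely from each other for a few members. These were chosen after their values were seen, as the 7 with the largest pooled SD in water, from 1.59 (Cyp2c68) to 0.66 (Cyp2d13). Cyp2c68 measured 2.24, 0.71 and -0.54 in WT and 1.94, 2.27 and -0.94 in TSP-1-/-. Its neighbour Cyp2c67 measured 1.79, 1.47 and 0.15 in WT and 1.67, 1.57 and -0.57 in TSP-1-/-, and the pair may share signal. Replicate 3 of both genotypes was the lowest for Cyp2c68, Cyp2c67, Cyp2d12, Cyp2f2, Cyp2d34 and Cyp2d13, the same arrays on which the distal gene Hoxb13 was low. Cyp2e1 differed from these, since it was highest on TSP-1-/- replicate 3 (1.11) and lay at 0.31 on WT replicate 3. The part of colon position in these values was not tested.

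**Figure D5:**
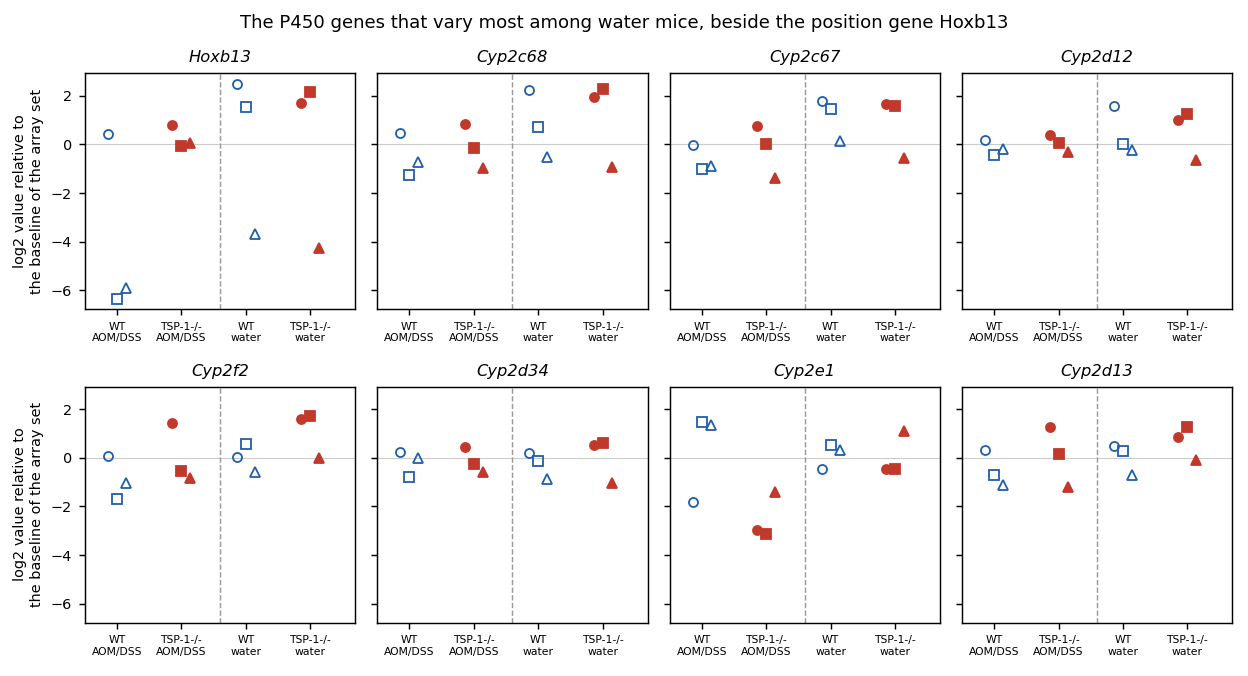
The log2 value relative to the baseline of the array set is plotted for Hoxb13, a gene of the distal colon, and for the 7 P450 genes with the largest spread within water groups, on all 12 arrays. WT is open blue and TSP-1-/- filled red, circle, square and triangle are replicates 1, 2 and 3, and the dashed line separates the array sets. In the water groups the triangles are lowest in each panel except Cyp2e1.

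Whether the genotype difference itself differed between AOM/DSS and water was tested as a difference of differences. No member was called, against 2 of all probes (0.00694%). An unadjusted p under 0.05 was reached by 16 members (18.6%, against 15.4% of all probes), and the lowest adjusted p was 0.228, for Cyp3a44 (-1.78). For Cyp2e1 the difference of differences was -2.77 (adjusted p = 0.286) and for Cyp2c65 -2.77 (adjusted p = 0.249). Without WT AOM/DSS replicate 1, 5 members were called, namely Cyp2e1 (-3.84), Cyp4b1 (-3.66), Cyp2d26 (-2.92), Cyp2c66 (-2.69) and Cyp3a44 (-2.19). For that fit, too, the share of all probes called is not given here. A baseline per probe and array set cancels in this comparison. The array sets also differ in the protocol of their labels, which cannot be told apart from the treatment.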

How the data were processed

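The authors hybridized labelled colon RNA to Affymetrix mouse gene 1.0 arrays, summarized the signals with PLIER16, normalized them by quantiles and deposited log2 values relative to a median baseline. The software version and genome build are not given in the sources used here. The methods give the baseline as the median of the 12 samples. The deposited values differ from this, since their median shows that the 6 AOM/DSS and 6 water arrays do not share a baseline. Gene symbols came from the platform annotation, which may be old, and promoters and gene order from RefSeq (GRCm38.p6). The 12 arrays were fitted with 1 mean per group in limma 3.58.1 (R 4.3.3) over 28853 probes, 38 of which have no water values, and p-values were adjusted by the Benjamini-Hochberg method over all probes. The replicates are labelled biological. The script was tested on simulated data. Named genes are all called members, the largest rise and fall of each family, fixed genes with a known role, the 5 lowest p in water, near-identical pairs, and called partners. Genes outside that rule, such as Cyp2c67, Cyp2c68, Cyp2d12, Cyp2d34 and others of the clusters, and the adipocyte comparison were chosen after their values were seen. The members and lists were chosen with earlier results of these data known. Alternatives were another normalization, array weights, a robust fit, a filter on the coefficient of variation, the replicate number as a block, the 6 arrays of a set alone, and leaving out each array. Some items are not reported here.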

Additional observations from a re-analysis of the deposited data

Results flagged for a closer look

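The genotype difference of 2 P450 genes ran in opposite directions in the AOM/DSS and water mice on every array. Cyp3a44 was lower on all TSP-1-/- than on all WT arrays in AOM/DSS (-0.88, -1.75 and -1.63 against -0.77, 0.23 and 0.66) and higher on all of them in water (0.52, 0.16 and 0.25 against 0.14, -0.02 and -0.16). The difference of differences was -1.78 on the log2 scale, with an adjusted p of 0.228 in limma. Cyp4f40, a family 4 member, measured -0.27, -0.43 and -1.0 in TSP-1-/- against -0.12, 0.11 and 0.64 in WT in AOM/DSS, and 0.19, 0.14 and 0.04 against -0.24, -0.04 and 0.01 in water. Its difference of differences was -0.99, with an adjusted p of 0.249. Neither passed the test of the difference itself. The share of all probes with such opposite directions is not given here, so the count of 2 is only a description.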

How the results depend on the processing

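The count of called P450 genes in AOM/DSS (7) became 0 with only the 6 arrays of the set, 0 with the 12 arrays quantile normalized again, 4 with array weights and 13 with no minimum fold, and ranged from 0 to 12 when 1 array was left out. The median difference (0.15) moved to 0.0577 when the 12 arrays were quantile normalized again and to 0.0643 when each set was, and ranged from 0.08 to 0.17 with 1 array left out. The water count was 0 throughout, and the water median (0.03) ranged from -0.003 to 0.06 with 1 array left out. The difference of differences count (0) ranged from 0 to 5. The 14 called partner, regulator and product enzyme genes became 0 with only the 6 arrays, 6 with the 12 arrays normalized again and 5 with array weights, and ranged from 1 to 20. In the AOM/DSS comparison none of the 7 called genes changed direction in any alternative. Same-numbered arrays were not treated as pairs in the main fit. Their correlations of deviations in AOM/DSS were 0.026, -0.042 and -0.024, against -0.022 to 0.051 for arrays of different numbers. In water they were 0.093, 0.281 and 0.402, against -0.377 to 0.183, so that some same-numbered water arrays were alike. With the replicate number as a block 6 P450 genes were called in place of 7. The cause of these changes was not tested, except that fewer arrays leave fewer degrees of freedom.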
